A study of Mus musculus with 9 samples.

Results

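The auxiliary α2δ and β subunits of voltage-gated calcium channels are encoded in the mouse by Cacna2d1, Cacna2d2, Cacna2d3 and Cacna2d4 (α2δ) and by Cacnb1, Cacnb2, Cacnb3 and Cacnb4 (β). These 8 genes were taken by name from the 37620 gene identifiers that were counted, and all 8 were found. They are described here in ribosome-associated RNA of parvalbumin-expressing inhibitory neurons (PV INs) of hippocampal CA3/CA2. The mice were PV-Cre; Rpl22HA/HA animals, in which Cre under the parvalbumin gene's control tags ribosomal protein L22 with hemagglutinin (HA), and both groups carried these alleles. A lentivirus expressing either a non-target shRNA (shNT, 5 samples) or an Ablim3 shRNA (shRNA, 4 samples) was injected into the dentate gyrus (DG) of mice aged 2 months, and CA2/CA3 tissue was collected after 2 weeks. The knockdown was therefore made in the mossy fiber inputs, whereas the RNA came from their PV IN targets, so that the level of Ablim3 in these samples is no check of it. Each sample pooled 6 mice of both sexes, so that differences between single animals are not seen.

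A high-voltage-activated calcium channel is built around a pore subunit, which binds a β subunit on its cytoplasmic side and an α2δ subunit on its extracellular side. The β subunits bring the pore to the membrane and tune its gating. The α2δ subunits are held at the outer membrane, raise the number of channels at the surface and at the presynaptic terminal, and in the case of Cacna2d1 and Cacna2d2 encode the targets of gabapentin. In fast-spiking PV INs these channels trigger the tightly timed release of GABA, and loss of Cacna2d2 or Cacnb4 causes ataxia and absence seizures in the mouse mutants ducky and lethargic.

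Between 18281719 and 34578837 reads were counted on genes per sample. Levels are CPM, that is read counts divided by the library size after TMM scaling. Levels of different auxiliary subunit genes are compared with each other only as RPKM, that is CPM per kilobase of annotated exon. Rankings over all genes or within other gene lists are by mean CPM, without regard to length. The markers of PV INs were abundant in every sample, with Gad1, the GABA-synthesizing enzyme, at a mean of 2724 CPM and Pvalb at 788.5 CPM. These means cover both groups. Pvalb had 998 ± 287 (shNT, SD) and 526 ± 163 (shRNA, SD) CPM, with overlap between the groups. Its log2 fold change of -0.92 was the lowest among the PV IN markers listed, short of the threshold (FDR = 0.0678, edgeR quasi-likelihood test). All 12 PV IN markers listed had negative log2 fold changes (median -0.35), and 0 of 12 passed the test (edgeR quasi-likelihood test, FDR under 0.05; 2 at an unadjusted p under 0.05, and 1 by the likelihood ratio test). Markers of other cells were present too, none of them at 0 in all samples. CA3 and CA2 pyramidal neuron markers summed to between 597 and 1471 CPM in the shNT samples and between 1538 and 1928 CPM in the shRNA samples. In bulk RNA of this kind fewer PV INs and less RNA per PV IN cannot be told apart. Libraries that stood apart within their group were shNT replicate 2 and shRNA replicate 4. Of uniquely aligned reads 18.6% lay outside annotated exons in shNT replicate 2, against 9.76% to 11.3% in the other shNT samples, and 27.2% did in shRNA replicate 4, where the remaining shRNA samples had 12.4% to 19.8%. The highest of the latter, shRNA replicate 1, was thus above shNT replicate 2, and their nuclear-retained noncoding RNAs summed to 13492 and 14955 CPM. The reported fit used all samples of both groups. Main results are given a further time without shNT replicate 2 and shRNA replicate 4. The fit was also run with shRNA replicate 1 left out as well, a choice added after seeing the data.

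Per kilobase of exon, Cacnb4 was the most abundant auxiliary subunit gene in the shNT samples, at 30.7 ± 3.78 RPKM (SD, n = 5). Cacnb3 followed at 20.8 ± 4.36 RPKM, Cacna2d3 at 15.4 ± 4.11, Cacna2d2 at 12.1 ± 4.45 and Cacnb1 at 11.3 ± 2.88. Cacnb2 (3.20 ± 0.536 RPKM) and Cacna2d1 (1.89 ± 0.677) were far lower, and Cacna2d4 was close to undetected at 0.0944 ± 0.0237. Each gene exceeded the next in this order in 5 of 5 shNT samples, except Cacna2d2 and Cacnb1, whose order held in 4 of 5. In the shRNA samples Cacnb3 came first, at 27.4 ± 2.38 RPKM (SD, n = 4), ahead of Cacnb4 at 24.6 ± 7.71 in 3 of 4 samples, and Cacnb1 (15.1 ± 1.73) lay above Cacna2d2 (11.1 ± 4.58) in 4 of 4. The exon length behind these values ranged from 3120 bases for Cacnb3 to 9224 for Cacnb2. With the length of the longest transcript instead, Cacnb2 stood at 7.49 RPKM in the shNT samples and Cacnb1, at 15.1, lay above Cacna2d2, at 12.6.

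No member passed the test between the groups: 0 of 8 reached an FDR under 0.05 with a change of at least 1.5-fold, where 1.75% of the 15069 genes tested did (edgeR quasi-likelihood test, Benjamini-Hochberg adjustment). At an unadjusted p under 0.05 there were 4 members higher in the shRNA samples and 0 lower, against 20.7% and 13.4% of all genes tested. Cacna2d1 and Cacnb2 were past 1.5-fold at an FDR under 0.1, as were 12.7% of all genes in that direction. These were also the members called by edgeR's likelihood ratio test, which called 11.2% of all genes as higher. Of the 8, 6 had a positive log2 fold change, against 57.9% of all genes, and their median was 0.40 against 0.11 over all genes tested. All 8 passed the filter on low counts (CPM of at least 1 in at least 1 sample before scaling), Cacna2d4 only through shRNA replicate 4.

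**Figure D1:**
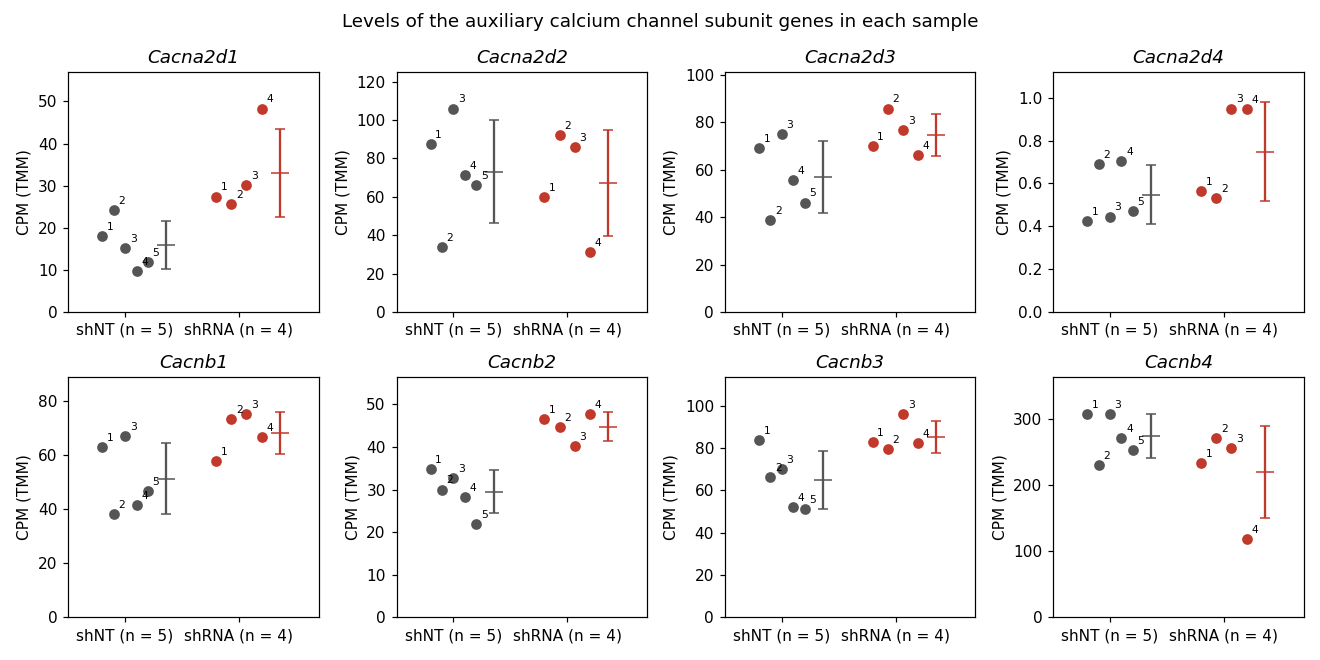
Level of each gene in CPM (TMM scaled, linear axis from 0) in the 5 shNT and 4 shRNA samples, with each point marked by its replicate number and the mean ± SD beside it. Every shRNA point lies above every shNT point for Cacna2d1 and Cacnb2, as for 8.97% of all genes tested, and the groups overlap for the other 6 genes.

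Cacna2d1 (ENSMUSG00000040118) encodes the α2δ isoform best known as the gabapentin receptor and for its part in synapse formation. It lies on the plus strand of chromosome 5 from 15440509 to 15880329 in the mm9 build, over 42 merged exons, and no exon of another gene overlaps its own. The 250 bases before its RefSeq start are shown because its groups did not overlap. They lie at chr5:15934441-15934690 of GRCm38.p6 on the plus strand, a later build than the counts use, and capitals mark GGGCGG, the core of the Sp1 site, on either strand.

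Cacna2d1: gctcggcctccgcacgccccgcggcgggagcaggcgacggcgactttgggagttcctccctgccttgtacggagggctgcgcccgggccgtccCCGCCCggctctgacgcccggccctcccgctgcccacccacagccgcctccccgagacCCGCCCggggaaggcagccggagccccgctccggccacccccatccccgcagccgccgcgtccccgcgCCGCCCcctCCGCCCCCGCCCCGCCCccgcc

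This window held 6 such matches, of which the pair nearest to the start share a base, and 82.4% G or C, against a median of 52.4% over 32851 RefSeq promoter windows of that length. GGGCGG occurred in 32.7% of all windows. Neither TGACGTCA, the full cAMP response element (1.55% of all windows), nor TGANTCA, the AP-1 site (6.75%), was found in it on either strand.

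The level of Cacna2d1 was 18.1, 24.3, 15.3, 9.74 and 11.95 CPM across shNT replicates 1 to 5, against 27.4, 25.7, 30.2 and 48.3 across shRNA replicates 1 to 4. All shRNA samples were above all shNT samples, as were 8.97% of the genes tested, with shRNA replicate 4 far above the rest and shNT replicate 2 just below the lowest shRNA sample. Group means were 15.9 ± 5.68 (shNT, SD, n = 5) and 32.9 ± 10.4 (shRNA, SD, n = 4) CPM, and the fitted log2 fold change was 1.05 ± 0.27 (SE) at an adjusted p of 0.0608, short of the threshold (Benjamini-Hochberg adjustment of the edgeR quasi-likelihood test). It was the largest log2 fold change of the 8. Without shRNA replicate 4 the log2 fold change was 0.78 (FDR = 0.141, edgeR quasi-likelihood test), and without both that library and shNT replicate 2 it was 1.02 with an FDR of 0.0255, past the threshold (edgeR quasi-likelihood test). With shRNA replicate 1 also omitted it was 0.99 with an FDR of 0.129, short of it (edgeR quasi-likelihood test). Omitting single samples gave FDRs from 0.0426 to 0.169 (edgeR quasi-likelihood test), past the threshold without shNT replicate 1 or shNT replicate 2 and short of it without any of the other 7. With a per-sample trend over exon length or gene length removed the log2 fold change was 0.65 or 0.62. The names of the samples carry either of 2 prefixes, 1 shared by 6 samples and 1 by 3, and what the prefixes stand for is not stated. Among the 6 the mean log2 level differed by 0.55, and among the 3, which holds only shRNA replicate 4 and shNT replicates 4 and 5, by 2.15.

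Cacna2d2 (ENSMUSG00000010066, chromosome 9 from 107301943 to 107431677, plus strand) encodes the α2δ isoform lost in ducky mice, found in Purkinje cells and in many interneurons. Its level was 87.6, 33.8, 106, 71.4 and 66.3 CPM across shNT replicates 1 to 5, against 59.9, 92.0, 85.9 and 31.4 across shRNA replicates 1 to 4. The groups overlapped throughout, and the lowest value in each group belonged to the library that stood apart. Group means were 73.0 ± 26.9 (shNT, SD, n = 5) and 67.3 ± 27.7 (shRNA, SD, n = 4) CPM, and the fitted log2 fold change was -0.12 ± 0.34 (SE; adjusted p = 0.823, edgeR quasi-likelihood test). The sign was not stable: it was 0.12 without shRNA replicate 4, 0.02 without shNT replicate 3 and -0.42 with a trend over gene length removed. Its log2 level varied within the groups (SD 0.63 among the shNT samples) more than that of any other member.

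Cacna2d3 (ENSMUSG00000021991, chromosome 14 from 29718133 to 30535050, minus strand) encodes an isoform that does not bind gabapentin, and at 817 kb it is the longest of these genes. Its level was 69.0, 38.9, 75.1, 55.5 and 46.2 CPM across shNT replicates 1 to 5, against 69.9, 85.7, 76.7 and 66.1 across shRNA replicates 1 to 4. The shRNA samples lay close together at the upper end of the shNT range, and 2 of 4 were above the highest shNT sample. The log2 fold change was 0.39 ± 0.19 (SE; adjusted p = 0.176, edgeR quasi-likelihood test), and -0.055 with a trend over gene length removed.

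Cacna2d4 (ENSMUSG00000041460, chromosome 6 from 119186544 to 119302425, plus strand) encodes an isoform best known from photoreceptor synapses. It had between 12 and 21 reads per sample, or 0.427 to 0.949 CPM, which places it at the 4.49th percentile of the genes tested by mean CPM. Its log2 fold change was 0.45 ± 0.38 (SE; adjusted p = 0.407, edgeR quasi-likelihood test), and at this depth no difference between the groups was detected.

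Among the β genes, Cacnb2 (ENSMUSG00000057914, chromosome 2 from 14525933 to 14909535, plus strand) encodes the main β subunit of heart muscle, which is also present in neurons. RefSeq gives 2 starts for it. The 250 bases before each are shown for the same reason as for Cacna2d1, at chr2:14604056-14604305 and chr2:14823842-14824091 of GRCm38.p6 on the plus strand, with GGGCGG on either strand in capitals.

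Cacnb2, upstream start: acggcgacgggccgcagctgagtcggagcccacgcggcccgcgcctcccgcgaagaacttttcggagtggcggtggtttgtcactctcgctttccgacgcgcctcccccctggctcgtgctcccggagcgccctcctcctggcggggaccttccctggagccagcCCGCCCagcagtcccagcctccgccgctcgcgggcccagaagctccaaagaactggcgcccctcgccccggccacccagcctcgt

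Cacnb2, downstream start: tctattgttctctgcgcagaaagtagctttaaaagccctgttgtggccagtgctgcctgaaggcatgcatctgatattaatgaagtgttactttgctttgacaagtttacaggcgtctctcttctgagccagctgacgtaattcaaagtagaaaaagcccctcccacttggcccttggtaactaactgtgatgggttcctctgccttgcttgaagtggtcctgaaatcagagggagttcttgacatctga

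The upstream window held 1 match at 73.2% G or C and the downstream window 0 matches at 46.0% G or C. TGACGTCA and TGANTCA were in neither. The counts do not tell which start was used. Of the 12 windows that RefSeq gives for 7 of the members, 0 held TGACGTCA and 0 held TGANTCA.

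The level of Cacnb2 was 34.8, 30.0, 32.7, 28.3 and 21.9 CPM across shNT replicates 1 to 5, against 46.6, 44.7, 40.1 and 47.8 across shRNA replicates 1 to 4. All shRNA samples were above all shNT samples, as were 8.97% of the genes tested. The highest, by a small margin, was shRNA replicate 4, and shNT replicate 2 was within the shNT range. Group means were 29.6 ± 4.95 (shNT, SD, n = 5) and 44.8 ± 3.37 (shRNA, SD, n = 4) CPM, and the fitted log2 fold change was 0.60 ± 0.15 (SE) at an adjusted p of 0.0559, just short of the threshold (Benjamini-Hochberg adjustment of the edgeR quasi-likelihood test). It passed without shNT replicate 1 (log2 fold change 0.67, FDR = 0.0389, edgeR quasi-likelihood test) but not without any other single sample, where the FDR was up to 0.169 by the same test. Without both shNT replicate 2 and shRNA replicate 4 the log2 fold change was 0.59 (FDR = 0.0606, edgeR quasi-likelihood test). With shRNA replicate 1 also omitted it was 0.50 (FDR = 0.211, edgeR quasi-likelihood test). With a per-sample trend over exon length removed the log2 fold change was 0.19. Within the 6 and the 3 samples of each name prefix the differences were 0.43 and 0.94 on the log2 scale. Exons of other genes overlap 5.30% of its own.

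Cacnb1 (ENSMUSG00000020882, chromosome 11 from 97862822 to 97884348, minus strand), whose product is the β subunit of skeletal muscle and is also made in brain, had 63.0, 38.1, 67.1, 41.4 and 46.6 CPM in shNT replicates 1 to 5. It had 57.9, 73.3, 75.2 and 66.5 CPM in shRNA replicates 1 to 4, of which 2 lay above the highest shNT sample. Its log2 fold change was 0.41 ± 0.19 (SE; adjusted p = 0.143, edgeR quasi-likelihood test). Cacnb3 (ENSMUSG00000003352, chromosome 15 from 98462651 to 98474961, plus strand), which encodes a β subunit prominent with N-type channels, had 83.9, 66.6, 70.3, 52.3 and 51.1 CPM with shNT and 82.9, 79.6, 96.3 and 82.6 CPM with shRNA. The groups overlapped only through shNT replicate 1, and the log2 fold change was 0.40 ± 0.16 (SE; adjusted p = 0.116, edgeR quasi-likelihood test). Only limma voom, of the tests run, called Cacnb3 (log2 fold change 0.59, adjusted p = 0.00533).

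Cacnb4 (ENSMUSG00000017412, chromosome 2 from 52283845 to 52532350, minus strand) encodes the β subunit lost in lethargic mice, which often partners P/Q-type channels. Its level was 307, 231, 308, 271 and 254 CPM across shNT replicates 1 to 5, against 234, 271, 255 and 119 across shRNA replicates 1 to 4. The groups overlapped, and shRNA replicate 4 lay far below all other samples. Group means were 274 ± 33.8 (shNT, SD, n = 5) and 219.8 ± 68.9 (shRNA, SD, n = 4) CPM, and the fitted log2 fold change was -0.32 ± 0.23 (SE; adjusted p = 0.326, edgeR quasi-likelihood test). Without shRNA replicate 4 it was -0.13. The difference was -0.14 among the 6 samples of the larger name set and -1.14 among the 3 of the smaller. Exons of A430018G15Rik, a noncoding gene on the other strand, overlap 16.0% of those of Cacnb4, and counting ignored strand.

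**Figure D2:**
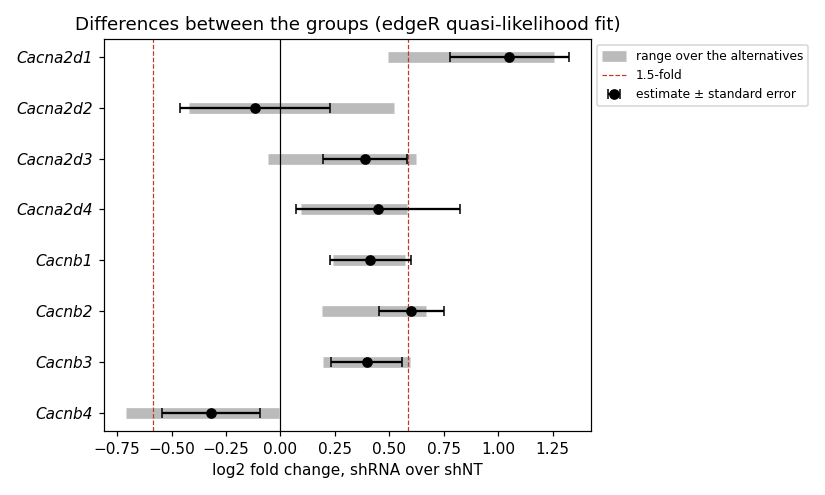
Log2 fold change of each gene, shRNA over shNT, from the edgeR quasi-likelihood fit (point, with its standard error as the bar) and the range over the alternative fits (grey). The dashed lines mark a 1.5-fold change, which Cacna2d1 at 1.05 and Cacnb2 at 0.60 exceed, and the grey ranges of Cacna2d2 and Cacna2d3 cross 0.

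The make-up of each family within a sample does not depend on scaling between samples. In the shNT samples Cacna2d3 made up 52.5% ± 1.95 (SD, n = 5) of the summed α2δ RPKM, Cacna2d2 40.1% ± 6.19 and Cacna2d1 7.12% ± 4.54. In the shRNA samples the shares were 57.5% ± 3.51 (SD, n = 4), 30.5% ± 8.82 and 11.7% ± 5.58. The share of Cacna2d1 was 15.1% in shNT replicate 2 and 19.8% in shRNA replicate 4, while it ran from 4.12% to 6.08% in the other shNT samples and 7.35% to 10.1% in the other shRNA samples. Without those 2 libraries the share of Cacna2d1 was higher, and that of Cacna2d2 lower, in every shRNA sample than in any shNT sample. With them the groups overlapped for both. The summed α2δ level was 29.5 ± 8.23 RPKM (SD, n = 5) and 35.4 ± 5.80 RPKM (SD, n = 4), and the groups overlapped.

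Among the β genes the share of Cacnb4 separated the groups. It was 43.6%, 43.9%, 45.7%, 51.2% and 49.4% of the summed β RPKM in shNT replicates 1 to 5, and 37.1%, 39.4%, 35.5% and 22.3% in shRNA replicates 1 to 4. The groups did not overlap, the shRNA samples being the lower, and the same held with the longest transcript as the length. For the levels of single genes this was so in 6.68% of the genes tested, and no such percentage was computed for shares or ratios. Without shNT replicate 2 and shRNA replicate 4 the ranges were 43.6% to 51.2% and 35.5% to 39.4%. The share of Cacnb3 was 31.4% ± 3.58 (SD, n = 5) and 38.4% ± 4.60 (SD, n = 4), that of Cacnb1 17.0% ± 2.12 and 21.1% ± 2.67, and that of Cacnb2 4.87% ± 0.528 and 6.89% ± 1.39, and the groups overlapped for all 3. Without shNT replicate 2 and shRNA replicate 4 the share of Cacnb2 was 4.13% to 5.18% and 5.41% to 7.16%, without overlap, while those of Cacnb1 and Cacnb3 still overlapped. With the longest transcript as the length the share of Cacnb2 was 9.51% and 13.0% on average. The summed β level was 66.0 ± 10.3 RPKM (SD, n = 5) and 71.9 ± 9.10 RPKM (SD, n = 4). These shares were looked at with the gene levels known and carry no test.

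**Figure D3:**
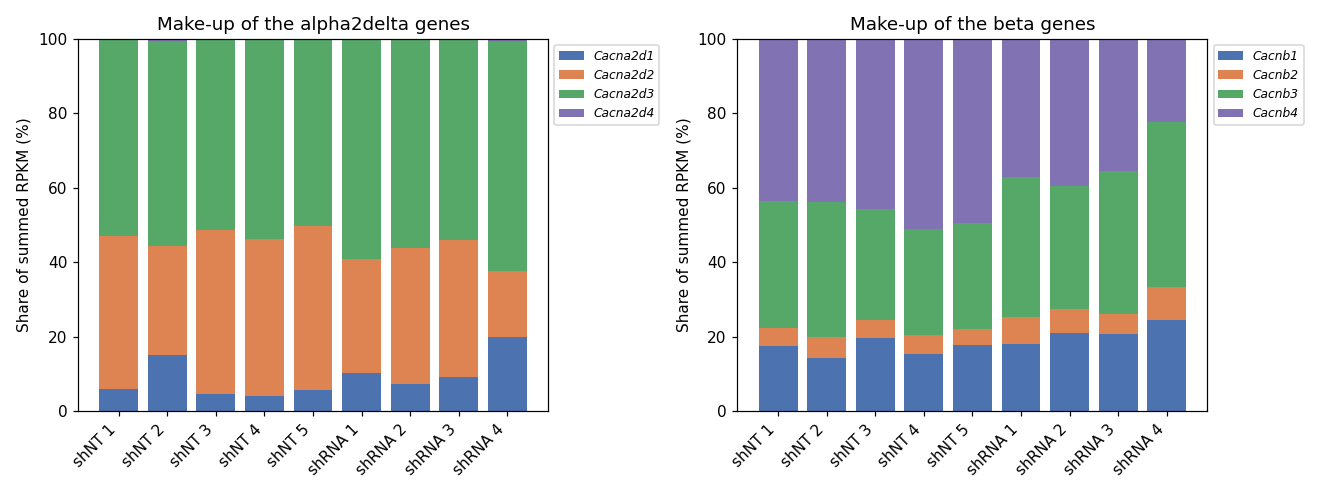
Share of each gene in the summed RPKM of its family, as stacked bars on a linear axis from 0 for each of the 9 samples, α2δ genes on the left and β genes on the right. The Cacnb4 segment takes 43.6% to 51.2% in the shNT samples and 22.3% to 39.4% in the shRNA samples, and Cacna2d1 is largest in shNT replicate 2 and shRNA replicate 4.

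Ratios of genes within a sample restate these shares for pairs of genes that were chosen with their levels known. Cacnb4 over Cacnb2 was 9.11, 7.92, 9.72, 9.88 and 11.96 in shNT replicates 1 to 5, and 5.18, 6.26, 6.57 and 2.57 in shRNA replicates 1 to 4. The groups did not overlap, with or without the libraries that stood apart. The ratio depends on the lengths used: the merged exons span 8938 and 9224 bases and the longest transcripts 8225 and 3945, and with the latter it was 3.68 to 5.56 with shNT and 1.19 to 3.05 with shRNA. Cacnb4 over Cacnb3 was 1.21 to 1.81 with shNT and 0.502 to 1.19 with shRNA, also without overlap. Cacna2d2 over Cacna2d1 was 6.74, 1.93, 9.63, 10.2 and 7.71 with shNT and 3.03, 4.98, 3.95 and 0.904 with shRNA. Here shNT replicate 2 lay among the shRNA samples, and without it and shRNA replicate 4 the ranges were 6.74 to 10.2 and 3.03 to 4.98.

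**Figure D4:**
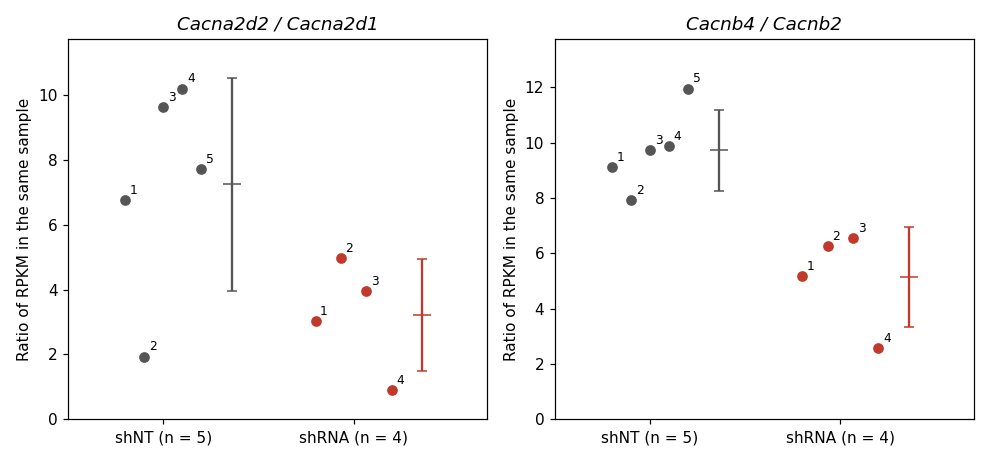
Ratio of RPKM between Cacna2d2 and Cacna2d1 (left) and between Cacnb4 and Cacnb2 (right) within each sample, on linear axes from 0, with replicate numbers at the points and mean ± SD beside them. For Cacnb4 over Cacnb2 the shNT samples lie between 7.92 and 11.96 and the shRNA samples between 2.57 and 6.57, whereas shNT replicate 2 lies among the shRNA samples for Cacna2d2 over Cacna2d1.

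Other measures of the libraries moved with these genes in part. The summed level of the 12 PV IN markers was 7663, 5343, 8544, 8601 and 8638 CPM across shNT replicates 1 to 5, against 5449, 7657, 6917 and 3157 across shRNA replicates 1 to 4. Cacna2d2 and Cacnb4 were lowest in samples where this sum was lowest, shRNA replicate 4 and shNT replicate 2, and Cacnb4 was next lowest in shRNA replicate 1. Among the other samples the order did not hold throughout. The sum was highest in shNT replicate 5, where Cacna2d2 was 66.3 CPM, against 92.0 CPM in shRNA replicate 2. Cacnb4 was 254 CPM in shNT replicate 5, against 307 CPM in shNT replicate 1, where the sum was lower. Cacna2d1 was highest within each group where reads outside exons were most frequent, at 27.2% in shRNA replicate 4 and 18.6% in shNT replicate 2. In shRNA replicate 1, however, with 19.8% of reads outside exons, it was 27.4 CPM. That was below the 30.2 CPM of shRNA replicate 3, with 12.4%. With the percentage outside exons added to the model, the log2 fold change of Cacna2d1 was 0.68, that of Cacnb2 0.55 and that of Cacnb4 -0.01, and 0 members and 0 genes passed (edgeR quasi-likelihood test, FDR under 0.05; 6 members and 4479 genes at an unadjusted p under 0.05). Of the 12 astrocyte markers 12 had positive log2 fold changes (median 1.39, and 0.43 without shRNA replicate 4), with a summed level of 1136 to 1625 CPM in the shNT samples and 1514 to 5919 CPM in the shRNA samples. Of the 10 CA3 and CA2 pyramidal neuron markers 9 were positive (median 0.70, and 0.62 without that library). Of these markers 1 was called, Grik4 (log2 fold change 1.17, FDR = 0.0403, edgeR quasi-likelihood test), where 1.75% of all genes tested were. Summed levels in the shNT and shRNA samples were 98.1 to 171 and 164 to 186 CPM for DG granule cell markers (7 of 8 positive), 63.5 to 92.5 and 101 to 128 CPM for oligodendrocyte precursor markers (5 of 6 positive, 3 called), and 775 to 2406 and 1470 to 3059 CPM for oligodendrocyte markers (8 of 8 positive). They were 50.7 to 120.03 and 87.0 to 99.3 CPM for microglia (4 of 8 positive), 87.3 to 252 and 54.8 to 754 CPM for endothelial cells (8 of 8 positive), and 27.1 to 123 and 23.8 to 209 CPM for vascular smooth muscle (4 of 6 positive). Without shRNA replicate 4 the median log2 fold change turned from 0.50 to -0.91 for endothelial markers and from 0.13 to -1.41 for vascular smooth muscle markers. Nuclear-retained noncoding RNAs summed to 1651 to 14955 and 3602 to 18825 CPM (6 of 6 positive). The part of these cells and reads in the values of the auxiliary subunit genes was not tested.

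**Figure D5:**
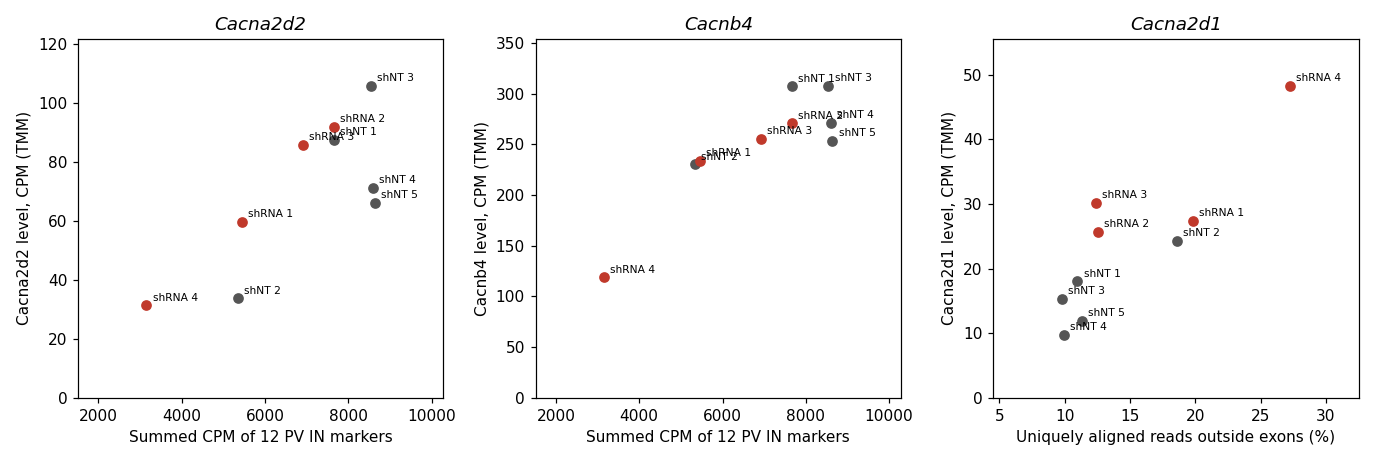
Level in CPM of Cacna2d2 (left) and Cacnb4 (middle) against the summed CPM of 12 PV IN markers, and of Cacna2d1 (right) against the percentage of uniquely aligned reads outside exons, 1 point per sample (grey shNT, red shRNA; linear axes). shRNA replicate 4 has the lowest marker sum (3157 CPM), the lowest Cacnb4 (119 CPM) and the highest Cacna2d1 (48.3 CPM).

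The genes most like each member over the 9 samples were sought among genes averaging at least 10 CPM, by the root mean square difference of log2 CPM after centring each gene on its own mean. Cacna2d2 was closest to Gfra1 (0.10), Tll1 (0.11) and Inpp5j (0.11), which shared its low levels in shNT replicate 2 and shRNA replicate 4. Cacnb4 was closest to Tcf25 (0.08), Kcnn1 (0.09), a calcium-activated potassium channel gene, and Mapk10 (0.09). Cacna2d1 was closest to Carhsp1 (0.12), Fry (0.14) and Pvrl3 (0.15), with log2 fold changes of 0.94, 0.95 and 1.01. Cacna2d3 was closest to Grik2 (0.05), a kainate receptor gene, Trim9 (0.06) and Paxip1 (0.06), Cacnb1 to Stk4, Ubr3 and Sec23ip (each 0.07), Cacnb2 to Celf1, Ptpdc1 and Zcchc6 (each 0.10), and Cacnb3 to Kif21b (0.08), Jph4 (0.09) and 1110003O08Rik (0.09). For Cacna2d4, with few reads, the nearest was Frmd8 (0.20). These distances are descriptions over samples that also differ in depth and in cell make-up.

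Genes for calcium channel pore subunits were set beside the auxiliary subunit genes. The list, and the sums and ratios below, include the T-type pores, which are not high-voltage-activated. Of 10 pore genes 9 were tested, 8 had a positive log2 fold change (median 0.74) and 0 passed (edgeR quasi-likelihood test, FDR under 0.05; 5 at an unadjusted p under 0.05, and 4 by the likelihood ratio test). Of all genes tested 57.9% were positive. At an unadjusted p under 0.05 (edgeR quasi-likelihood test) 20.7% of them were higher and 13.4% lower, and the likelihood ratio test called 11.2% as higher. Cacna1a, the P/Q-type pore, had 63.6 ± 14.8 (shNT, SD, n = 5) and 82.3 ± 17.7 (shRNA, SD, n = 4) CPM, with a log2 fold change of 0.37. For Cacna1b, the N-type pore, it was 0.83, for Cacna1e, the R-type pore, 1.60 and for Cacna1h, a T-type pore, 1.06. The summed RPKM of the β genes was 3.09 to 6.58 times that of the pore genes in the shNT samples and 2.79 to 4.68 times in the shRNA samples, and that of the α2δ genes 1.01 to 3.48 and 1.32 to 2.53 times. Both ratios overlapped between the groups. Without shNT replicate 2 and shRNA replicate 4 the β ratio was 5.29 to 6.58 and 2.89 to 4.68, without overlap, and the α2δ ratio 2.30 to 3.48 and 1.32 to 2.53, still overlapping. In the same samples the pore sum was 9.29 to 14.3 RPKM with shNT and 16.4 to 24.4 RPKM with shRNA, without overlap. The β sum was 57.4 to 79.0 and 70.6 to 80.4 RPKM, with overlap, so the lower β ratio went with more pore RNA and not with less β RNA. No share over all genes was computed for such ratios.

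The γ subunit genes, several of which serve as auxiliary subunits of AMPA receptors, had 6 of 8 tested, 3 positive (median -0.01) and 0 passed (edgeR quasi-likelihood test, FDR under 0.05; 1 at an unadjusted p under 0.05, and 0 by the likelihood ratio test). The most abundant, Cacng2 (stargazin), had 214 ± 10.5 (shNT, SD, n = 5) and 148 ± 48.4 (shRNA, SD, n = 4) CPM, with a log2 fold change of -0.53, and Cacng3 one of -0.41. For Cacng4 it was 0.00 and for Cacng5 0.44. Of 24 genes for partners and regulators of α2δ and β subunits, 20 were positive (median 0.42) and 0 passed in the same test (unadjusted p under 0.05 in 8 that were higher and 2 that were lower; 5 higher and 1 lower by the likelihood ratio test). Among the most abundant of them were Nrxn3, which encodes a neurexin (log2 fold change 0.02), and Nedd4, which encodes a ubiquitin ligase (0.23).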

How the data were processed

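RNA bound to HA-tagged ribosomes was immunoprecipitated, and libraries were made with the SMARTer v4 kit. STAR (alignment, mm9 transcriptome) and HTSeq 0.6.0 (counting per gene, ignoring strand) were run by the authors. The deposited values are whole-number counts without normalization. GENCODE annotation of the same build named 37205 of 37620 identifiers and gave positions and exon lengths.

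Genes reaching 1 CPM in any 1 sample (15069) entered the analysis. After TMM scaling, edgeR 4.0.16 in R 4.3.3 fitted its quasi-likelihood model with group as the only term. A gene was called at an FDR under 0.05 (Benjamini-Hochberg over all genes tested) and a change of at least 1.5-fold. DESeq2 1.42.0 and limma 3.58.1 served as alternatives. The fits were tested on simulated counts. RPKM is TMM-scaled CPM per kilobase of merged exons. Nothing in the labels says whether samples came from separate litters or days, so whether the pools are independent is not known. The p-values set the difference between the groups against the spread between pooled samples. Reads outside exons, ambiguous reads and reads aligned at several places were left out of library sizes. Outside exons lay 9.76% to 27.2% of uniquely aligned reads, and 1.36% to 1.78% of them were ambiguous. Records aligned at several places made up 8.24% to 14.4% of these and the uniquely aligned reads together.

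The members and the lists were chosen with earlier results of these data known. The named genes were the 8 members, the 3 nearest genes of each by profile, and the most abundant genes of each pathway list, up to 4. Some genes that this rule names are not reported here. Promoter windows came from RefSeq (GRCm38.p6), which matched 7 of the 8 members.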

Additional observations from a re-analysis of the deposited data

Results flagged for a closer look

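Of 46 sets of values, each from a single group, 6 held a sample far from the rest, and chance alone would give about 2.3. No level of an auxiliary subunit gene was among them. In shNT replicate 2 the share of reads outside exons was 18.6% against 9.76% to 11.3% in the other shNT samples. The same library had 14955 CPM summed over 6 nuclear-retained noncoding RNAs, against 1651 to 2997 CPM, and 2406 CPM over 8 oligodendrocyte markers, against 775 to 1216 CPM. In shRNA replicate 4, 12 astrocyte markers summed to 5919 CPM against 1514 to 1798 CPM in the other shRNA samples. Its 8 endothelial markers summed to 754 CPM against 54.8 to 114 CPM, and its 6 markers of vascular smooth muscle to 209 CPM against 23.8 to 41.5 CPM. Cacna2d1 was highest within its group in each of these libraries, at 24.3 CPM in shNT replicate 2 and 48.3 CPM in shRNA replicate 4, and whether that is linked to the markers was not tested.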

How the results depend on the processing

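Of the 8 members, the numbers called were 2 with the likelihood ratio test or the exact test (Cacna2d1 and Cacnb2), 2 with limma voom (Cacna2d1 and Cacnb3), 1 with DESeq2 (Cacna2d1), and 1 (Cacna2d1) without shNT replicate 2 and shRNA replicate 4 together. Cacnb2 had an adjusted p of 0.00463 with limma voom and 0.00980 with DESeq2 but was under 1.5-fold in both. Leaving out single samples gave 0 to 2 members, 2 without shNT replicate 1 and 1 without shNT replicate 2. Over all genes tested, 264 were called in the reported fit. The likelihood ratio test called 2230, the exact test 2193, DESeq2 2365, limma voom 2919, the fit without a low count filter 515, and the fit without shNT replicate 2 and shRNA replicate 4 called 680. With library size only, upper quartile scaling, either length trend removed, reads outside exons as a covariate, or only the larger set of names, 0 genes were called (edgeR quasi-likelihood test; between 1493 and 5360 at an unadjusted p under 0.05). Leaving out single samples gave counts from 0 to 1417 (without shNT replicate 1). The count was 0 on omission of any of shNT replicates 3, 4 and 5 and shRNA replicates 1 and 3, 142 without shRNA replicate 4, and 482 without shNT replicate 2. The choices added after seeing the data were the likelihood ratio test with the exon length trend removed (1194 genes, 0 members) and without shRNA replicate 4 (831 genes, 0 members), and the quasi-likelihood test without shNT replicate 2 and shRNA replicates 1 and 4 (0 genes, 0 members; 3118 genes and 2 members at an unadjusted p under 0.05).

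Replicate numbers were shared between the groups, and the labels do not say whether they pair the samples. The correlations of same-numbered deviations from the group means were -0.27, -0.64, 0.49 and -0.18, and 1 of 4 shRNA samples correlated best with its own number. With only 4 numbers to compare, these values cannot decide whether samples were paired. With the replicate block 29 genes and 0 members were called.

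The log2 fold change of Cacna2d2 changed sign with limma voom (0.17), reads outside exons as a covariate (0.52), only the larger set of names (0.042), without shNT replicate 3 (0.02), without shRNA replicate 4 (0.12) with the likelihood ratio test without that library (0.12) and without shNT replicate 2 and shRNA replicates 1 and 4 (0.078). Leaving out single samples gave -0.32 to 0.12. That of Cacna2d3 changed sign with the gene length trend removed (-0.055). The other 6 members kept their sign in every alternative that gave them a value. Cacna2d1 lay between 0.49 and 1.26, Cacnb2 between 0.19 and 0.67 and Cacnb4 between -0.71 and -0.01. The scalings gave medians over all genes of 0.07 to 0.17, and the median of the members was 0.36 to 0.45 in them. The causes of these changes were not tested. Cacna2d4 had 12 to 21 reads per sample, and the other members at least 193.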
